A study of Mus musculus with 14 samples.

Results

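The 39 protein-coding Hox genes of the mouse were examined in blood-forming and stromal cells of the bone marrow, with and without interleukin-1β (IL-1β). The members were all protein-coding genes in the count tables with the symbol Hoxa, Hoxb, Hoxc or Hoxd and a number, 39 of 55487 genes. This rule used no measured value, although the choice was made with earlier results of these data known. They comprise 11 HoxA, 10 HoxB, 9 HoxC and 9 HoxD genes. RNA was sequenced from LSK cells (Lin- Sca-1+ c-kit+), the fraction of mouse marrow that holds the haematopoietic stem cells, from LK cells (Lin- c-kit+), which are mostly committed myeloid progenitors, and from cultured bone marrow mesenchymal stromal cells (MSC). The LSK and LK cells came from lethally irradiated C57BL/6 recipients of marrow from Mx1Cre; Jak2 VF/+ donors, a strain with a heterozygous Jak2V617F knock-in allele, and the recipients were given PBS or IL-1β at 0.5 μg a dose by intraperitoneal injection, 3 doses a week for 16 weeks. The MSC were grown for 21 days from wild-type C57BL/6 marrow and then exposed for 72 hours to PBS or to IL-1β at 5 ng/ml. There were 3 PBS and 2 IL-1β libraries each of LSK and of LK cells, and 2 PBS (numbered 2 and 3) and 2 IL-1β libraries of MSC.

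Several features limit these groups as models. The PBS controls of LSK and LK cells carry the Jak2V617F allele too, and no wild-type LSK or LK library was analysed here, so that nothing in these values separates the allele from its absence. Mx1Cre is driven by an interferon-inducible promoter and was activated in the donors with pI-pC, and cells of the recipients themselves may remain in a sort that did not select for donor cells. The ages of the animals at sampling are not given in the labels, and no label ties a library to one animal or one culture. P-values therefore measure the spread between these libraries, which may be technical in part. The libraries held 4393233 to 18544346 counted read pairs in LSK and LK cells and 5834909 to 30871055 in MSC, and each IL-1β library of LSK and LK cells was shallower than each PBS library of the same population. Marker genes followed the sort. All 10 markers of LSK and haematopoietic stem cells were called higher in LSK than in LK cells with PBS, and Ly6a, which encodes Sca-1, stood at 24.9 to 38.0 CPM (read counts scaled to a common library size) in the LSK and 0.251 to 0.759 CPM in the LK libraries with PBS. The MSC libraries were a mixture by their markers. They held 492 to 1569 CPM of the collagen gene Col1a1, while Lepr, a marker of stromal cells in intact marrow, was at 0 in both PBS libraries, and the macrophage genes Csf1r and Adgre1 reached 828 to 2752 and 793 to 2203 CPM.

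Hox genes encode homeodomain transcription factors, and in mammals they lie in clusters on separate chromosomes, where the order of the genes follows the order in which they are used along the body axis of the embryo. Genes at the same place in different clusters, called paralogs, carry the same number. In blood formation, genes of the HoxA and HoxB clusters are active in stem and early progenitor cells and are lowered as cells differentiate, with Hoxa9 and its cofactor Meis1 best known for their role in self-renewal and leukaemia. Proteins of the TALE family such as Meis and Pbx bind DNA together with Hox proteins, MLL-containing complexes keep Hox genes active, and Polycomb complexes keep them silent. Stromal cells keep the Hox pattern of the place in the body from which they came, in adults too.

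On the GRCm38 build of the mouse genome, the HoxA genes span chr6:52155590-52260880 and are transcribed from the minus strand. The HoxB genes span chr11:96194316-96368256, the HoxC genes chr15:102921103-103036852 and the HoxD genes chr2:74668310-74765142, all on the plus strand. Promoter windows from RefSeq (GRCm38.p6) were found for 22 of the 39 genes. For 4 genes the 250 bases before a RefSeq start site are shown, 5′ to 3′ on the strand of the gene. CG dinucleotides, the sites of DNA methylation, are in capitals. Each of the 4 windows ends at the 5′ end that the count table gives for its gene. The 4 genes stand for the patterns described here: Hoxa10 had the largest fitted fold difference between LSK and LK cells with PBS among the tested Hox genes, Hoxb4 was read in all 3 populations, Hoxa11 was read in MSC and at 0 in LSK and LK cells, and Hoxd12 was at 0 in all 14 libraries. The windows lie at chr6:52240855-52241104 (minus strand), chr11:96318017-96318266 (plus strand), chr6:52245811-52246060 (minus strand) and chr2:74674763-74675012 (plus strand), in that order.
Hoxa10: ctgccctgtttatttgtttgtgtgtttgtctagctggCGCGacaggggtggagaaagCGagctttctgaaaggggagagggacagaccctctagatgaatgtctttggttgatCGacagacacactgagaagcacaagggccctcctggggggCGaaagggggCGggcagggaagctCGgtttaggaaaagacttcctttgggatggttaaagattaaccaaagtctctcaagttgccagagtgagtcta
Hoxb4: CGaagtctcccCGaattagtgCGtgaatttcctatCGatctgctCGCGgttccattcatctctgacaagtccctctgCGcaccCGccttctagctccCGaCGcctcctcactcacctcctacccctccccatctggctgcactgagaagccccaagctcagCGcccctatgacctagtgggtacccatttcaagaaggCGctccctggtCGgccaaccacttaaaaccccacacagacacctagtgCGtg
Hoxa11: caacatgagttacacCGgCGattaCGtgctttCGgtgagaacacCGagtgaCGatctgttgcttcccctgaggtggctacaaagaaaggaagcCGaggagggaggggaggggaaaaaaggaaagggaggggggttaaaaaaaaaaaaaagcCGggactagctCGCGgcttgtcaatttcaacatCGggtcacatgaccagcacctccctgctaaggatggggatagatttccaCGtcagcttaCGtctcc
Hoxd12: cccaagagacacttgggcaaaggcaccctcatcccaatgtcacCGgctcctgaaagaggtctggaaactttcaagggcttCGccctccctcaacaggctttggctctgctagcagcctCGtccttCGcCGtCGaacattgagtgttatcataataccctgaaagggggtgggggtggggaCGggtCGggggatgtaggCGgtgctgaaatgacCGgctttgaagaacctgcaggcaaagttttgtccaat

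The Hoxa10 window shown holds 7 CG dinucleotides, that of Hoxb4 14, that of Hoxa11 13 and that of Hoxd12 10. Hoxa10 has a further RefSeq window, at chr6:52234940-52235189, which is not shown and holds 20. Over all 32851 RefSeq windows of this length the median was 6 CG dinucleotides, and over the 24 windows of the 22 Hox genes it was 12.5, with a range from 2 to 35. Windows of Hox genes read in LSK or LK cells (9 windows, over 3 read pairs) had a median of 14, and those of Hox genes at 0 there (14 windows) had a median of 12.5, so the CG content of the windows differed little between genes that were read and genes that were not. The letters TGATNNAT, searched on both strands as a form of the joint Pbx and Hox site, were in 4 of the 24 windows (Hoxa2, Hoxb1, Hoxb8 and Hoxd11) and in 7.68% of all windows. The letters TGACAG, a form of the Meis site, were in 2 windows (Hoxa2 and Hoxa3) and in 15.9% of all windows. None of the 4 windows shown holds either motif, which says only that these letters are not in these 250 bases.

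The first question was which Hox genes each population expressed. In LSK and LK cells the RNA came from the HoxA and HoxB clusters alone. All 9 HoxC genes and all 9 HoxD genes had no read pair in any of the 10 LSK and LK libraries, and the same was true of Hoxa11, Hoxa13, Hoxb1, Hoxb7, Hoxb9 and Hoxb13. Hoxb8 had 1 read pair. These 10 libraries held 114081232 counted pairs together, so that a count of 0 allows a level of up to 3 pairs, or 0.0263 CPM without scaling. Intervals and limits of this kind cover counting error only. Of the 8852 pairs counted on Hox genes in LSK and LK cells, 81.3% fell on the HoxA and 18.7% on the HoxB cluster.

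**Figure D1:**
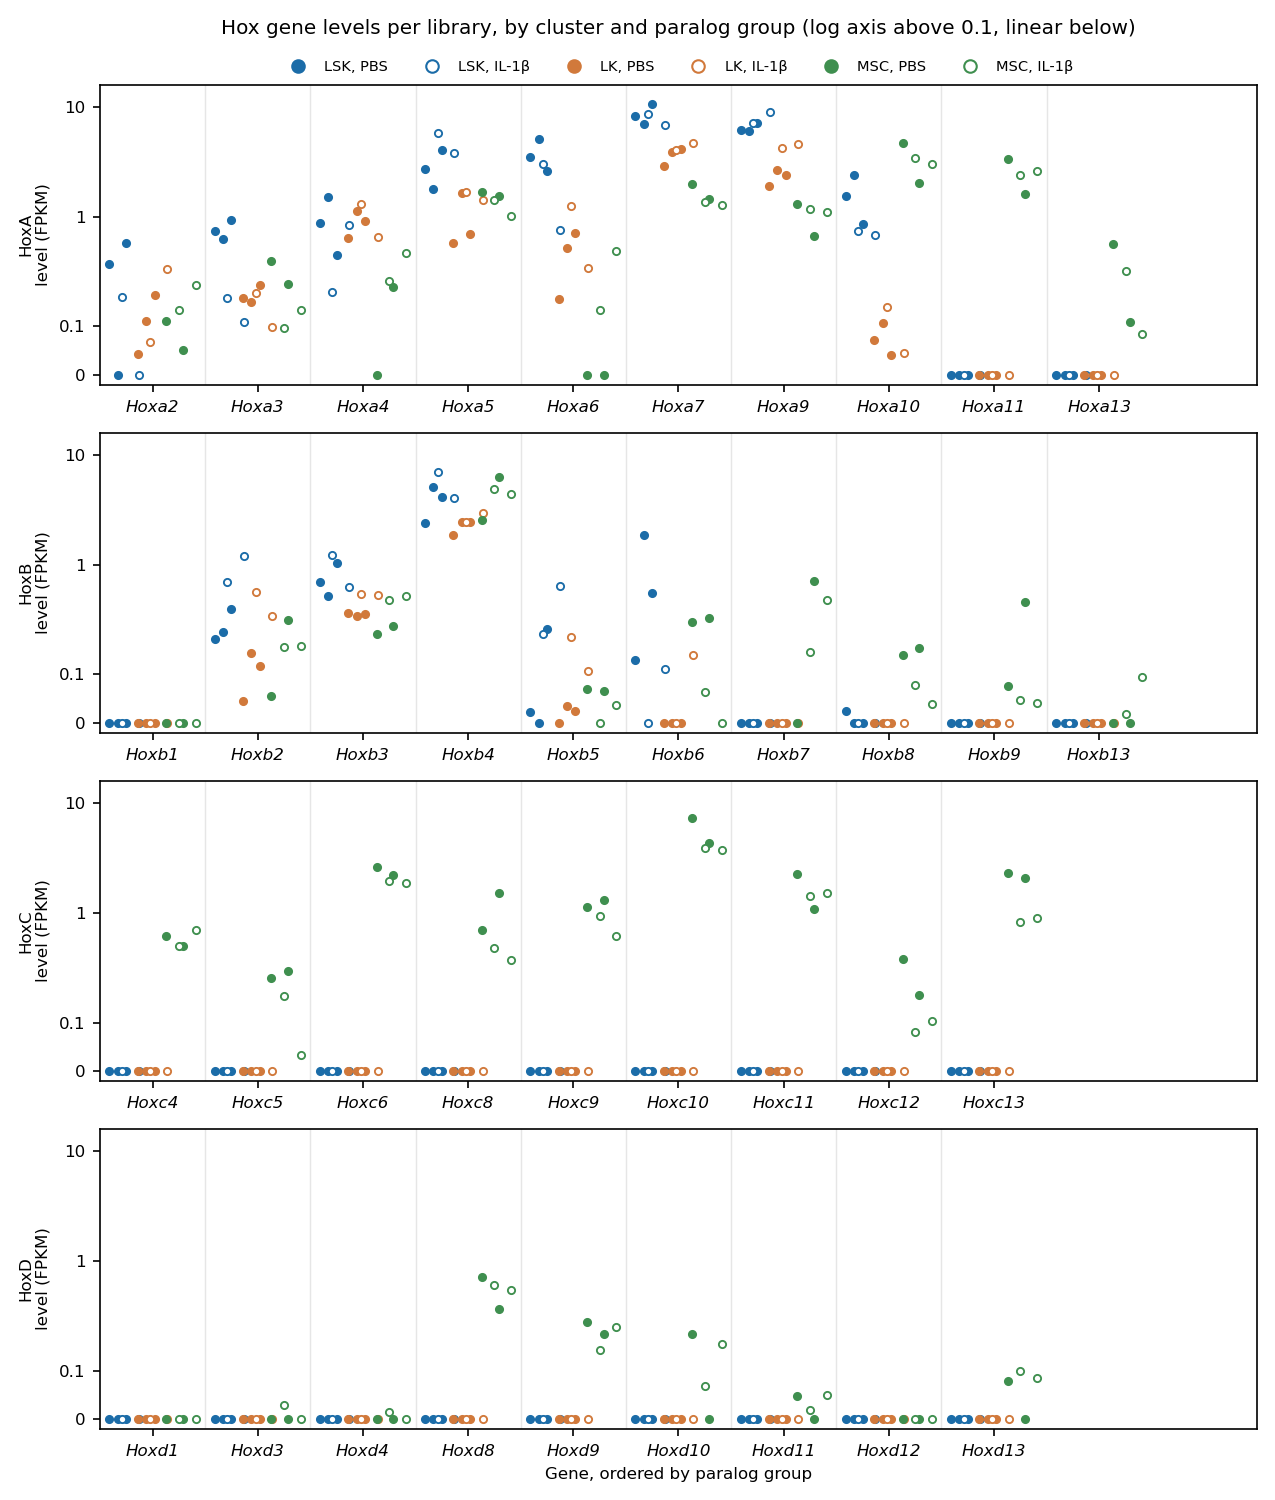
Level of Hox genes in each library, in FPKM (CPM per kilobase of exon), on an axis that is logarithmic above 0.1 and linear below. Each row is a cluster with its genes ordered by paralog group, each point is a library, and filled points are PBS and open points IL-1β; the HoxC and HoxD rows hold points above 0 for MSC alone.

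The genes that lie next to the silent clusters were read. All 6 protein-coding genes that flank the HoxC cluster, 3 on each side, were above 1 CPM in each of the 10 LSK and LK libraries, among them Cbx5 at 261 to 374 CPM. Of the 6 genes that flank the HoxD cluster, 5 were above 1 CPM in each library, among them Lnpk at 16.1 to 36.1 CPM, and the exception was Evx2, a homeobox gene of the same cluster, at 0. LSK and LK cells thus had read pairs on genes next to the HoxC and HoxD clusters and none on the Hox genes within them.

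MSC used all 4 clusters. Of 3809 pairs counted on Hox genes in MSC, 41.8% fell on HoxA, 21.5% on HoxB, 33.5% on HoxC and 3.2% on HoxD genes. The genes at 0 in all 4 MSC libraries were Hoxb1, Hoxd1 and Hoxd12, which were also at 0 in LSK and LK cells, so 3 of the 39 Hox genes had no read pair in any of the 14 libraries. The HoxD genes were low, with Hoxd8 the highest of them in the PBS libraries at 1.97 and 1.00 CPM. For Hoxd3 and Hoxd4, 62.3% and 52.3% of the exon bases are shared with another gene on the same strand, and pairs that fall there were not counted, so that their low values are uncertain. For the genes in which a comparison was called, this share was at most 8.0% (Hoxa3).

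The orders of levels within each population were compared per length, in FPKM. With PBS, LSK cells had their highest levels at Hoxa7 (8.63 ± 1.77 FPKM, SD, n = 3) and Hoxa9 (6.47 ± 0.624), followed by Hoxb4 (3.91 ± 1.40), Hoxa6 (3.72 ± 1.27), Hoxa5 (2.86 ± 1.16) and Hoxa10 (1.61 ± 0.769). Hoxa7 ranged from 7.03 to 10.5 FPKM and Hoxa9 from 6.04 to 7.18, so these neighbours overlapped, and so did Hoxb4, Hoxa6 and Hoxa5. LK cells with PBS kept the leading genes at lower levels, with Hoxa7 at 3.63 ± 0.655 FPKM (SD, n = 3), Hoxa9 at 2.33 ± 0.398 and Hoxb4 at 2.25 ± 0.320. Hoxa9 and Hoxb4 overlapped there, at 1.90 to 2.68 and 1.88 to 2.45 FPKM, and Hoxa7 at 2.90 to 4.15 lay above both.

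MSC had another order. With PBS their highest mean levels were at Hoxc10 (5.77 ± 2.07 FPKM, SD, n = 2), Hoxb4 (4.43 ± 2.68), Hoxa10 (3.36 ± 1.90), Hoxa11 (2.48 ± 1.25), Hoxc6 (2.41 ± 0.298) and Hoxc13 (2.20 ± 0.174). Most of the spread came from a difference between the PBS libraries. Hoxb4 was at 2.53 FPKM in library 2 and 6.33 in library 3, while Hoxa10 was at 4.70 and 2.01 FPKM. No neighbours in this order differed by more than this spread. Hoxc10, Hoxa10 and Hoxa11 belong to paralog groups 10 and 11, which pattern the hindlimb and the lower spine in the embryo, while Hoxd10 and Hoxd11 of the same groups were at 0.394 and 0.197 CPM in MSC PBS library 2 and at 0 in library 3. Hoxa11 and Hoxc10 had no read pair in LSK or LK cells. How much of any MSC value came from macrophages in the cultures was not tested. MSC were cultured and came from other mice than the LSK and LK cells, and no test was run between them.

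**Figure D2:**
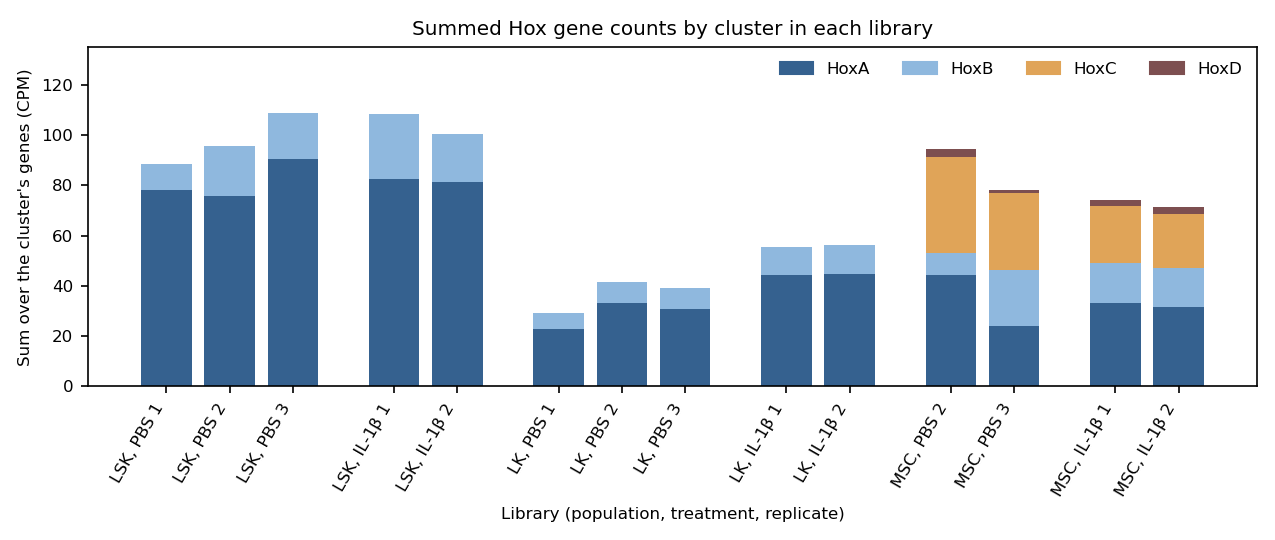
Sum of the CPM values of the Hox genes in each library, with the bar of a library divided by cluster. The sums were 88.5 to 109 CPM in LSK, 29.4 to 56.2 CPM in LK and 71.3 to 94.4 CPM in MSC libraries, and HoxC and HoxD parts appear in MSC bars alone.

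The next comparison was between LSK and LK cells, the step from the stem-cell fraction to committed progenitors, within PBS-treated mice. Hox genes of the HoxA cluster were higher in LSK cells. Of the 39 genes, 10 passed the filter on low counts (edgeR's filterByExpr), and 5 of the 10 were called higher in LSK cells, Hoxa3, Hoxa6, Hoxa7, Hoxa9 and Hoxa10, with none called lower. Called means a p under 0.05 from the quasi-likelihood method of edgeR after the adjustment of Benjamini and Hochberg over all 12737 genes tested, together with a log2 fold change of more than 0.5 in either direction. Over all genes tested, 18.4% were called higher and 12.8% lower. The median log2 fold change of the 10 Hox genes was 1.51, beside 0.04 over all genes tested. Hoxa6, Hoxa10 and Hoxb2 passed the filter through their LSK libraries, with at most 9, 7 and 11 read pairs in an LK library. The median therefore leans towards LSK cells by this selection.

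Hoxa9 (chr6:52223100-52231089), the Hox gene with the most read pairs in these cells, stood at 34.4, 33.7 and 40.1 CPM in the LSK and at 10.6, 15 and 13.5 CPM in the LK libraries with PBS. All LSK libraries lay above all LK libraries, by a fitted 2.95-fold (log2 fold change 1.56 ± 0.21 SE, edgeR adjusted p = 0.00122). Hoxa7 (chr6:52214491-52221854), its neighbour, stood at 23.9, 20.2 and 30.3 CPM in LSK and 8.33, 11.1 and 11.9 CPM in LK cells. The gap was 2.53-fold (log2 fold change 1.34 ± 0.26 SE, edgeR adjusted p = 0.00525), again without overlap.

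Hoxa10 (chr6:52231197-52240854) had the largest fitted fold difference of the 10 Hox genes tested. Its levels were 5.09, 7.85 and 2.83 CPM in LSK and 0.234, 0.351 and 0.138 CPM in LK cells. Between these populations with PBS, it was thus nearly restricted to LSK cells, while MSC with PBS held 15.4 and 6.57 CPM. The fitted difference was 22.0-fold (log2 fold change 4.46 ± 0.66 SE, edgeR adjusted p = 0.00181), and the LK value rests on 12 read pairs over the 3 libraries. Its neighbour on the 5′ side of the cluster, Hoxa11, was at 0 in both populations, and so the HoxA genes read in LSK cells ended at Hoxa10.

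Hoxa6 (chr6:52206288-52208722) stood at 3.04, 4.45 and 2.26 CPM in LSK and at 0.156, 0.452 and 0.621 CPM in LK cells, an 8.18-fold gap (log2 fold change 3.03 ± 0.69 SE, edgeR adjusted p = 0.0108). Hoxa3 (chr6:52169062-52213336) stood at 4.50, 3.75 and 5.61 CPM in LSK and at 1.09, 1.00 and 1.45 CPM in LK cells, a 4.15-fold gap (log2 fold change 2.05 ± 0.48 SE, edgeR adjusted p = 0.0121). Neither gene's groups overlapped. The calls of Hoxa3 and Hoxa6 were lost when LK PBS library 1 was left out (edgeR adjusted p = 0.0695 and 0.0571) and when LK PBS library 2 was left out (0.0696 and 0.0557), while those of Hoxa7, Hoxa9 and Hoxa10 held in each alternative that was run.

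The other HoxA genes showed no called difference by edgeR. Hoxa5 was at 5.09, 3.32 and 7.67 CPM in LSK and 1.09, 3.11 and 1.31 CPM in LK cells (log2 fold change 1.63 ± 0.57 SE, edgeR adjusted p = 0.0567), with the lowest LSK library just above the highest LK library. It was called under 4 of 15 alternatives, DESeq2 and the fit without LSK library 2 among them (adjusted p from 0.0160 to 0.199 over the 15). Hoxa4, which lies between Hoxa3 and Hoxa5, was at 1.39, 2.40 and 0.720 CPM in LSK and 1.01, 1.81 and 1.45 CPM in LK cells. Its groups overlapped (log2 fold change 0.15 ± 0.65 SE, edgeR adjusted p = 0.882). Hoxa2 had 30 read pairs in the LSK PBS libraries together and was not tested.

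HoxB genes had higher values in LSK cells without passing the test. Hoxb4 (chr11:96318267-96321638), known for its power to expand blood stem cells when forced, stood at 6.15, 13.2 and 10.7 CPM in LSK and at 4.83, 6.23 and 6.28 CPM in LK cells. The lowest LSK library overlapped the LK libraries (log2 fold change 0.88 ± 0.36 SE, edgeR adjusted p = 0.0916). Hoxb3 was at 2.98, 2.19 and 4.43 against 1.56, 1.46 and 1.52 CPM, and Hoxb2 at 0.727, 0.848 and 1.39 against 0.156, 0.552 and 0.414 CPM (edgeR adjusted p = 0.113 and 0.177). In all, the LSK libraries lay above the LK libraries without overlap for 8 of the 10 tested genes, all but Hoxa4 and Hoxb4, beside 23.5% of all genes tested. Among the 8 are Hoxa6, Hoxa10 and Hoxb2, which passed the filter through their LSK libraries. Hoxb6 was at 0.264, 3.68 and 1.08 CPM in LSK and at 0 in all 3 LK libraries with PBS, at least 26.4-fold lower there against a floor of 3 pairs over the group. It was not tested, and LSK library 2 holds 52 of its 77 read pairs, without which the bound is 10.6-fold.

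**Figure D3:**
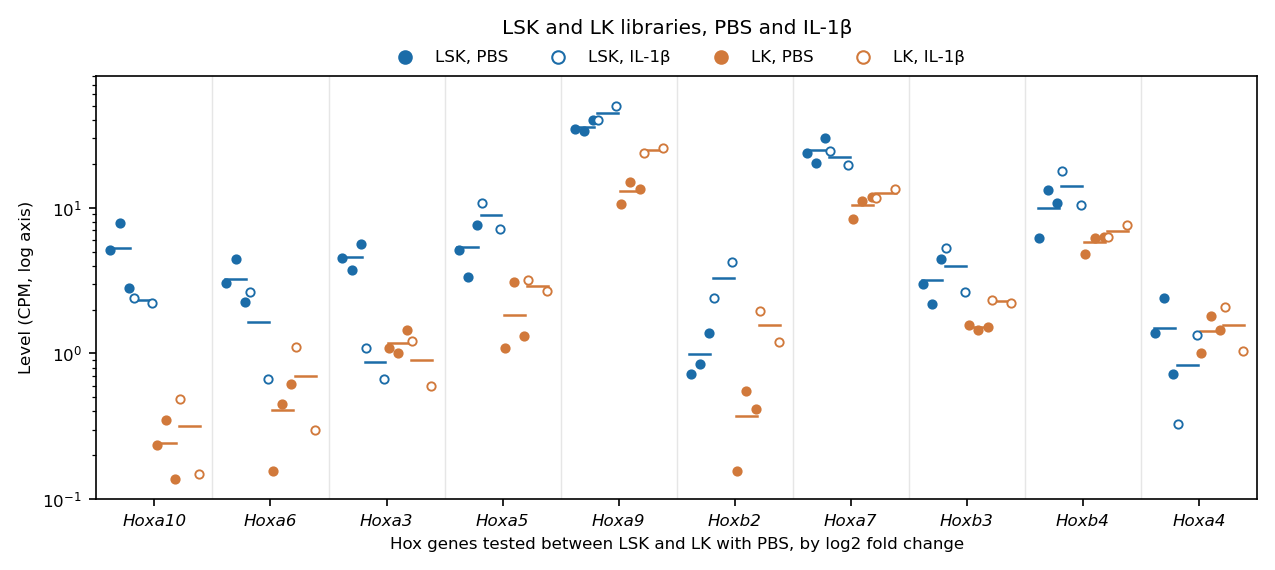
Level in CPM, on a log axis, of the 10 Hox genes tested between LSK and LK cells with PBS, ordered by log2 fold change, with a point for each library. PBS libraries are filled and IL-1β libraries open, and the LSK points stand above the LK points for Hoxa3, Hoxa5, Hoxa6, Hoxa7, Hoxa9, Hoxa10, Hoxb2 and Hoxb3 with PBS.

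With IL-1β the same direction was seen over fewer libraries. The filter left 7 Hox genes, and for all 7 both LSK libraries lay above both LK libraries, beside 27.7% of all 11743 genes tested. None of the 7 was called by edgeR, while 4.18% of all genes were called higher and 4.14% lower. An unadjusted p under 0.05 was found for 5 of the 7, beside 3263 of all 11743 genes tested. DESeq2 called 2 (Hoxa5 and Hoxa9) and limma-voom 0. Hoxa9 was at 39.9 and 49.6 CPM in LSK and 23.8 and 25.9 CPM in LK cells (log2 fold change 0.86 ± 0.22 SE, edgeR adjusted p = 0.0578). Hoxa10 was at 2.41 and 2.22 CPM in LSK and 0.488 and 0.149 CPM in LK cells (log2 fold change 2.76 ± 0.76 SE, edgeR adjusted p = 0.0661), and Hoxa5 at 10.8 and 7.09 against 3.17 and 2.68 CPM (1.64 ± 0.41 SE, edgeR adjusted p = 0.0536).

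The calls depended on whether libraries were paired by number, a pairing that no label states. With the replicate number as a block, which pairs an LSK with an LK library, the same edgeR test called 3 of the 7, Hoxa5, Hoxa9 and Hoxa10 (adjusted p = 0.0129, 0.0184 and 0.0310), all higher in LSK cells. Leaving out LSK IL-1β library 1 gave 4 calls and leaving out LSK IL-1β library 2 gave 6, whereas leaving out either LK IL-1β library gave 0. The remaining genes were Hoxa7 at 24.5 and 19.7 against 11.7 and 13.4 CPM (edgeR adjusted p = 0.0940), Hoxb4 at 17.8 and 10.4 against 6.35 and 7.58 CPM (edgeR adjusted p = 0.114), Hoxb2 at 2.41 and 4.21 against 1.95 and 1.19 CPM, and Hoxb3 at 5.26 and 2.66 against 2.32 and 2.23 CPM. The median log2 fold change of the 7 genes was 1.02, beside -0.02 over all genes tested. Among the 7, Hoxa10 passed the filter through its LSK libraries, with 22 and 10 read pairs against 4 and 1 in LK cells. In bulk libraries such as these, a lower share of cells that express a gene and less RNA per cell cannot be told apart.

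IL-1β was then compared with PBS within each population, the question for which the libraries were made. In LSK cells no Hox gene was called. Of 13 Hox genes tested by edgeR, 0 were called and 1 had an unadjusted p under 0.05, and DESeq2 and limma-voom called 0 as well. Over all 13132 genes tested, 0.32% were called higher and 0.312% lower, and 2431 had an unadjusted p under 0.05. The number called over all genes depended on the method, from 83 by edgeR to 891 by DESeq2. The 13 Hox genes had a median log2 fold change of -0.17, beside -0.06 over all genes tested.

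The leading genes of LSK cells overlapped between treatments. Hoxa9 stood at 34.4, 33.7 and 40.1 CPM with PBS and 39.9 and 49.6 CPM with IL-1β (log2 fold change 0.30, 95% interval -0.21 to 0.81, edgeR adjusted p = 0.558). Hoxa7 stood at 23.9, 20.2 and 30.3 CPM with PBS and 24.5 and 19.7 CPM with IL-1β (log2 fold change -0.17, 95% interval -0.80 to 0.46, edgeR adjusted p = 0.810). Neither interval reached a log2 fold change of 1 or -1.

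In LSK cells 3 of the 13 tested Hox genes were lower in each IL-1β library than in every PBS library, without passing the test. They were Hoxa3, Hoxa10 and Hoxb6, which had fewer read pairs. Over all 13132 genes tested, 2776 lay below in the same way, a share close to that of the Hox genes. Hoxa3 was at 4.50, 3.75 and 5.61 CPM with PBS and 1.09 and 0.665 CPM with IL-1β (log2 fold change -2.35 ± 0.78 SE, edgeR adjusted p = 0.174). Its IL-1β level was thus in the range of the LK libraries. When the 10 LSK and LK libraries were fitted together it was called lower (edgeR adjusted p = 0.0436). Hoxa10 was at 5.09, 7.85 and 2.83 CPM with PBS and 2.41 and 2.22 CPM with IL-1β (log2 fold change -1.17 ± 0.70 SE, edgeR adjusted p = 0.393). Hoxb6 had 77 read pairs over the PBS and 1 over the IL-1β libraries (edgeR adjusted p = 0.273).

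Other genes had higher values with IL-1β. Hoxb2 was at 0.727, 0.848 and 1.39 CPM with PBS and 2.41 and 4.21 CPM with IL-1β, without overlap (log2 fold change 1.71 ± 0.89 SE, edgeR adjusted p = 0.328). It was the 1 gene of the 13 tested to lie above in this way, beside 2404 of all 13132 genes tested. Hoxa5 (10.8 and 7.09 CPM with IL-1β, edgeR adjusted p = 0.484) and Hoxb4 (17.8 and 10.4 CPM, edgeR adjusted p = 0.576) overlapped with their PBS values. So did Hoxa4, at 1.39, 2.40 and 0.720 CPM with PBS and 0.328 and 1.33 CPM with IL-1β, Hoxa6 at 3.04, 4.45 and 2.26 against 2.63 and 0.665 CPM, Hoxb3 at 2.98, 2.19 and 4.43 against 5.26 and 2.66 CPM, and Hoxb5 at 0.0661, 0 and 0.720 against 0.657 and 1.77 CPM.

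Markers of other cells moved with IL-1β in the same LSK libraries. The summed level of 10 neutrophil granule markers was 1991 to 2802 CPM with PBS and 9033 and 10508 CPM with IL-1β, with 4 of 9 tested markers called higher. The summed level of the 10 LSK and stem-cell markers was 1418 to 1841 CPM with PBS and 797 and 927 CPM with IL-1β, and Flt3 and Hlf, a receptor of early multipotent cells and a stem-cell transcription factor, were among the markers called lower (log2 fold changes -2.42 and -2.08). The 6 lymphoid markers summed to 90.3 to 323 CPM with PBS, the highest in LSK library 2, and to 3.18 and 7.09 CPM with IL-1β. The part of these shifts in the Hox values of LSK cells was not tested.

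In LK cells Hoxa9 rose with IL-1β. It stood at 10.6, 15 and 13.5 CPM with PBS and at 23.8 and 25.9 CPM with IL-1β (log2 fold change 1.00 ± 0.20 SE, 95% interval 0.62 to 1.39, edgeR adjusted p = 0.0170). Both IL-1β libraries lay above all PBS libraries and below all LSK libraries. It was the 1 gene called among 8 Hox genes tested, beside 6.77% of all 12835 genes called higher and 2.57% lower. The call was lost when LK IL-1β library 1 (edgeR adjusted p = 0.169) or library 2 (0.132) was left out, and the log2 fold change was then 1.05 and 0.96.

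**Figure D4:**
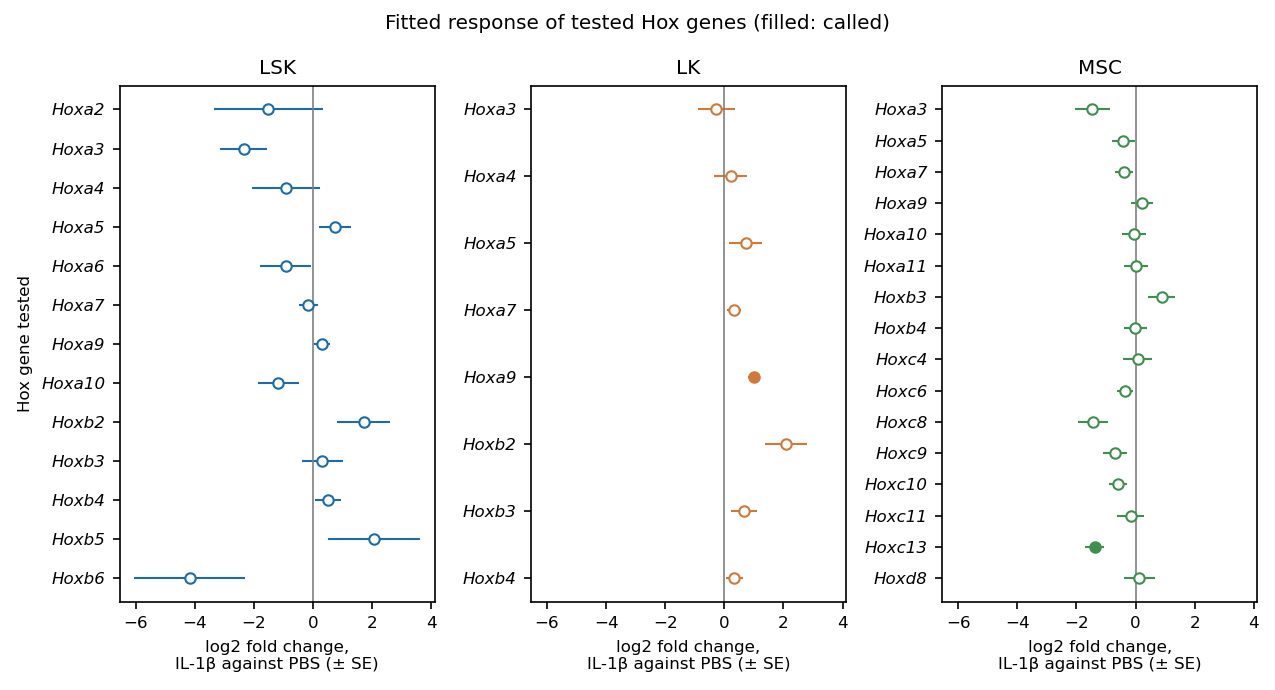
Fitted log2 fold change of IL-1β against PBS for tested Hox genes in LSK, LK and MSC libraries, with bars of 1 SE and filled points for called genes. Called genes are Hoxa9, at 1.00 in LK cells, and Hoxc13, at -1.39 in MSC.

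For 4 of the 8 tested Hox genes in LK cells, Hoxa9, Hoxb2, Hoxb3 and Hoxb4, both IL-1β libraries lay above all PBS libraries, beside 19% of all genes tested. Hoxb2 was at 0.156, 0.552 and 0.414 CPM with PBS and 1.95 and 1.19 CPM with IL-1β (log2 fold change 2.08 ± 0.72 SE, edgeR adjusted p = 0.112), and it was called when LK PBS library 3 was left out. Hoxb3 was at 1.56, 1.46 and 1.52 against 2.32 and 2.23 CPM (edgeR adjusted p = 0.412), and Hoxb4 at 4.83, 6.23 and 6.28 against 6.35 and 7.58 CPM (edgeR adjusted p = 0.499), the latter with a gap of less than the spread between the PBS libraries. The genes Hoxa3, Hoxa4, Hoxa5 and Hoxa7 overlapped between treatments. Hoxa7, the neighbour of Hoxa9, was at 8.33, 11.1 and 11.9 CPM with PBS and 11.7 and 13.4 CPM with IL-1β (log2 fold change 0.33, 95% interval -0.13 to 0.80, edgeR adjusted p = 0.429). Hoxa5 was at 1.09, 3.11 and 1.31 against 3.17 and 2.68 CPM, Hoxa4 at 1.01, 1.81 and 1.45 against 2.07 and 1.04 CPM, and Hoxa3 at 1.09, 1.00 and 1.45 against 1.22 and 0.595 CPM. The remaining Hox genes read in LSK or LK cells, among them Hoxa2, Hoxa6, Hoxa10, Hoxb5 and Hoxb6, had too few read pairs in LK cells to be tested. The fitted value was above 0 for 7 of the 8 tested Hox genes, beside 6049 of all 12835 genes tested. The median was 0.50, beside -0.03 over all genes tested.

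Summed over all Hox genes, the LK libraries held 29.4, 41.4 and 39 CPM with PBS and 55.4 and 56.2 CPM with IL-1β. In the LSK libraries the sums were 88.5, 95.8 and 109 CPM with PBS and 108 and 101 CPM with IL-1β. The sum was higher in both IL-1β libraries of LK cells than in the 3 PBS libraries, and Hoxa9 made up most of the gap. Granule markers moved in LK cells too, from a sum of 4330 to 9229 CPM with PBS to 16909 and 19674 CPM with IL-1β (7 of 10 called higher), and the sum of 8 erythroid markers moved from 3690 to 4856 CPM down to 2015 and 2380 CPM (5 of 8 called lower). Their part in the Hoxa9 value was not tested. The sum of the 10 LSK and stem-cell markers in LK cells was 466 to 634 CPM with PBS and 416 and 497 CPM with IL-1β, a sum made up mostly of Kit and Cd34. Hlf and Procr, rarer markers of the list, lay above all 3 PBS libraries in each IL-1β library. Of the 10 markers, these 2 lay above in this way and 4 lay below. Over all 12835 genes tested, 2439 lay above and 3781 below. Hlf was at 5.53, 7.03 and 11.1 CPM with PBS and 12.3 and 15.9 CPM with IL-1β, and Procr, the endothelial protein C receptor, at 0.311, 0.402 and 0.690 CPM against 0.976 and 1.49 CPM. Their part in the Hoxa9 value was not tested either.

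An interaction term in a fit of all 10 libraries tested whether LSK cells responded to IL-1β differently from LK cells. None of 13 Hox genes was called, beside 0.0289% of 13839 genes, and DESeq2 and limma-voom called 0 as well. An unadjusted p under 0.05 was found for 3, Hoxa3, Hoxa9 and Hoxb6, beside 1967 of all 13839 genes tested. For Hoxa9 the LSK response minus the LK response was -0.74 ± 0.32 SE on the log2 scale (edgeR adjusted p = 0.328), and for Hoxa3 it was -2.10 ± 0.89 SE (edgeR adjusted p = 0.321). The rise of Hoxa9 in LK cells was therefore not shown to differ from its response in LSK cells. The fitted difference was negative for 12 of the 13 genes, beside 7802 of all 13839 genes tested. Its median was -0.78, beside -0.12 over all genes tested. Some of the 13 rest on few read pairs, such as Hoxb6 with 0 in LK cells with PBS and 2 with IL-1β.

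**Figure D5:**
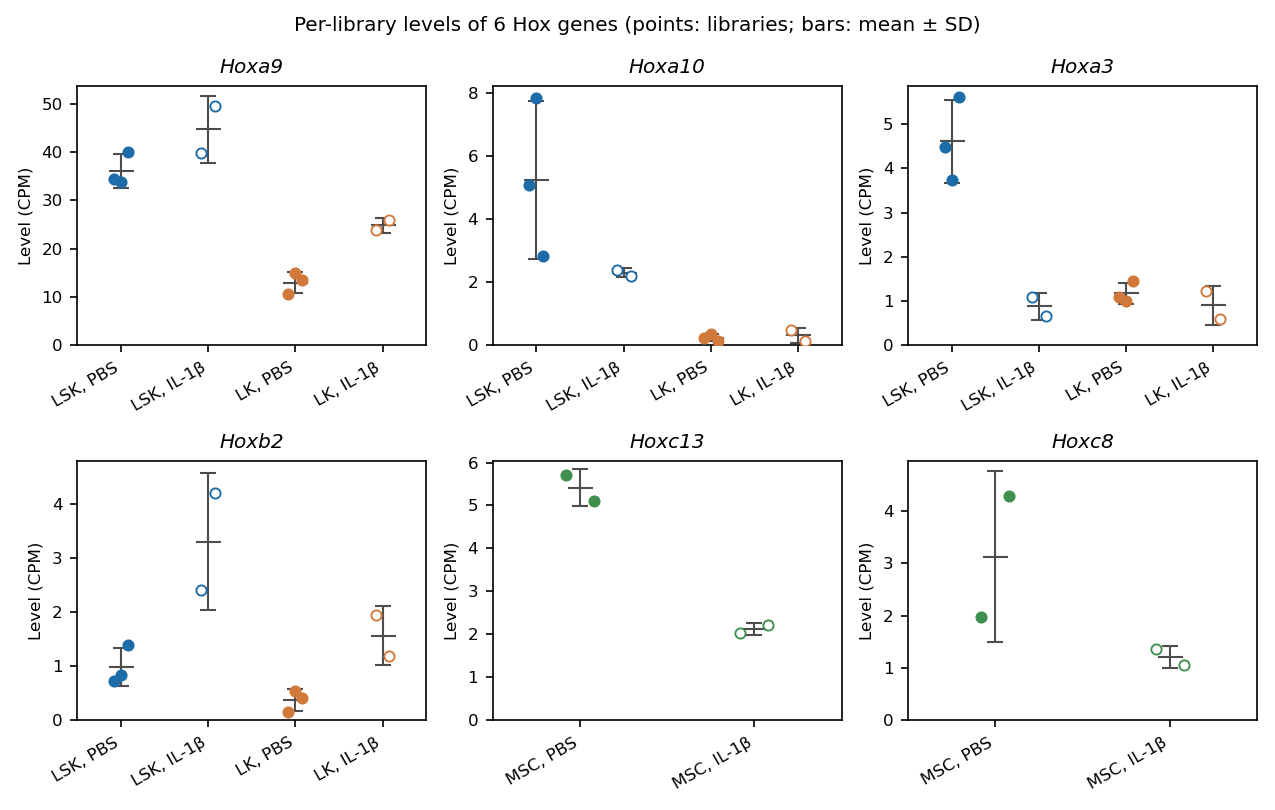
CPM of 6 Hox genes in each library, by population and treatment, with a point for each library and bars for the group mean ± SD. Each panel has its own axis from 0, and Hoxa9 in LK cells shows the IL-1β libraries at 23.8 and 25.9 CPM above the PBS libraries.

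In MSC 1 Hox gene was called. Hoxc13 (chr15:102921103-102928814), at the 5′ end of the HoxC cluster and known for its role in hair and nails, was at 5.72 and 5.11 CPM with PBS and 2.02 and 2.22 CPM with IL-1β. It fell 2.62-fold (log2 fold change -1.39 ± 0.33 SE, edgeR adjusted p = 0.0494), just under the threshold. Of 17 Hox genes tested, it was the 1 called, beside 7.14% of all 13239 genes called higher and 4.31% lower. The call was lost with DESeq2 (adjusted p = 0.0594), with a filter of 10 counts in 2 libraries (edgeR adjusted p = 0.0515) and without either IL-1β library (edgeR adjusted p = 0.495 and 0.386).

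The fitted value was below 0 for 11 of the 17 genes in MSC, beside 6563 of all 13239 genes tested. Both IL-1β libraries lay below both PBS libraries for 8 of the 17 tested genes (Hoxa3, Hoxa5, Hoxa7, Hoxc6, Hoxc8, Hoxc9, Hoxc10 and Hoxc13), beside 26.2% of all genes tested. The 17 genes had a median log2 fold change of -0.17, beside 0.00 over all genes tested. HoxC genes made up 5 of the 8. Hoxc8 was at 1.97 and 4.29 CPM with PBS and 1.36 and 1.06 CPM with IL-1β (log2 fold change -1.43 ± 0.51 SE, edgeR adjusted p = 0.127). Hoxc10, with the highest mean level per length in MSC with PBS, was at 13.8 and 8.22 CPM with PBS and 7.36 and 7.18 CPM with IL-1β (log2 fold change -0.61 ± 0.30 SE, edgeR adjusted p = 0.242). Hoxa3 was at 2.37 and 1.46 against 0.579 and 0.845 CPM (log2 fold change -1.46 ± 0.58 SE, edgeR adjusted p = 0.159).

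The remaining HoxC genes were Hoxc9 at 2.76 and 3.19 against 2.27 and 1.48 CPM, Hoxc6 at 6.31 and 5.29 against 4.71 and 4.54 CPM, Hoxc11 at 4.53 and 2.19 against 2.85 and 3.06 CPM and Hoxc4 at 1.58 and 1.28 against 1.28 and 1.79 CPM, none of them called. Of the HoxA genes, Hoxa10 was at 15.4 and 6.57 CPM with PBS and 11.2 and 9.82 CPM with IL-1β, and Hoxa11 at 7.69 and 3.65 against 5.45 and 6.02 CPM. In both genes the IL-1β values lay between the PBS values. The PBS libraries of MSC stood further apart than the IL-1β libraries for these genes, for Hoxa9 (7.29 and 3.74 against 6.61 and 6.12 CPM) and for Hoxb4 (6.51 and 16.2 against 12.5 and 11.4 CPM). Leaving out MSC PBS library 2 gave 5 calls (Hoxa9 and Hoxa10 higher, Hoxb9, Hoxc8 and Hoxc13 lower) and leaving out library 3 gave 3 (Hoxb4 higher, Hoxc10 and Hoxc13 lower), so that which genes were called in MSC rests on single libraries.

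Among the rest of the tested MSC genes were Hoxa5 at 3.15 and 2.92 CPM with PBS and 2.69 and 1.90 CPM with IL-1β, Hoxa7 at 5.72 and 4.20 against 3.93 and 3.70 CPM, and Hoxd8 at 1.97 and 1.00 against 1.65 and 1.48 CPM. Hoxb3 was at 0.986 and 1.19 against 2.02 and 2.22 CPM, above its PBS values in both IL-1β libraries, without a call (edgeR adjusted p = 0.250). Of the 17 tested Hox genes, 2 lay above in this way, beside 4410 of all 13239 genes tested. The 19 other Hox genes with a read pair in MSC were below the filter, and none of them averaged 1 CPM in either group. Cell type markers moved in the same libraries. The 10 macrophage markers summed to 11664 and 15430 CPM with PBS and to 35899 and 36561 CPM with IL-1β, with 7 of the 10 called higher, and 11 MSC markers summed to 1783 and 3492 CPM with PBS and to 4783 and 5162 CPM with IL-1β, with 0 of 9 tested called by edgeR and 2 at an unadjusted p under 0.05. The part of these shifts in the Hox values was not tested.

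Other genes of the Hox pathway were taken from lists. Of the TALE cofactors, Meis1 was among those called higher in LSK than in LK cells with PBS and with IL-1β. Meis1, which binds DNA with Hoxa9, stood at 123, 63.0 and 132 CPM in LSK and at 15.3, 17.7 and 22.2 CPM in LK cells with PBS (log2 fold change 2.62 ± 0.31 SE, edgeR adjusted p = 0.000697). It was lowest in LSK library 2 among the PBS libraries of LSK cells. In that library Hoxa3, Hoxa5, Hoxa7, Hoxa9 and Hoxb3 were lowest too, while Hoxa4, Hoxa6, Hoxa10, Hoxb4 and Hoxb6 were highest. With IL-1β Meis1 was at 65.1 and 40.1 CPM in LSK and 16.8 and 10.6 CPM in LK cells (log2 fold change 1.95 ± 0.33 SE, edgeR adjusted p = 0.0211). No TALE gene was called between IL-1β and PBS in any of the 3 populations by edgeR. An unadjusted p under 0.05 was found for 1 of 6 in LSK, 1 of 6 in LK and 2 of 9 in MSC. Over all genes tested it was found for 2431 of 13132, 3176 of 12835 and 3968 of 13239, in that order.

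Of 14 genes of the MLL complexes, all were tested in each comparison. Between LSK and LK cells with PBS, Kmt2a, which encodes MLL1, and Aff4 were called higher in LSK cells (log2 fold changes 1.40 ± 0.19 and 1.05 ± 0.20 SE), and Mllt3 and Dot1l, a histone H3 lysine methyltransferase, were called lower (-1.29 ± 0.19 and -0.77 ± 0.21 SE). Over all genes tested, 18.4% were called higher and 12.8% lower in this comparison. Kmt2a stood at 320, 274 and 202 CPM in LSK and 109, 114 and 98.1 CPM in LK cells. With IL-1β, Dot1l alone was called between the populations, lower in LSK cells (log2 fold change -1.14 ± 0.26 SE, edgeR adjusted p = 0.0422), beside 4.14% of all genes called lower. In LK cells Mllt3, a partner of Dot1l, fell with IL-1β, from 53.9, 56.2 and 45.7 CPM to 23.7 and 26.3 CPM (log2 fold change -0.98 ± 0.14 SE, edgeR adjusted p = 0.00615), and Aff1 rose (0.89 ± 0.12 SE, edgeR adjusted p = 0.00481). Over all genes tested there, 6.77% were called higher and 2.57% lower. In MSC Dot1l, Dpy30 and Psip1 were called lower with IL-1β (log2 fold changes -0.94 ± 0.15, -0.90 ± 0.18 and -0.56 ± 0.13 SE), beside 4.31% of all genes called lower. In LSK cells none was called by edgeR, with 3 at an unadjusted p under 0.05, beside 2431 of all 13132 genes tested.

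Of 25 Polycomb genes, all tested, 6 were called higher in LSK than in LK cells with PBS and none lower, beside 18.4% and 12.8% of all genes tested. The largest were Phc1 (log2 fold change 1.25 ± 0.24 SE), Cbx8 (1.01 ± 0.28 SE), Cbx6 (0.80 ± 0.21 SE) and Cbx2 (0.78 ± 0.18 SE). With IL-1β 1 was called between the populations, Cbx6 (0.79 ± 0.19 SE), beside 4.18% of all genes called higher. In LK cells Cbx2 was called lower with IL-1β (-0.99 ± 0.19 SE, edgeR adjusted p = 0.0159). In LSK cells and in MSC edgeR called 0, with 7 and 8 at an unadjusted p under 0.05. Over all genes tested, 2431 of 13132 in LSK cells and 3968 of 13239 in MSC had such a p. The 3 Cdx genes, which encode homeodomain proteins that act upstream of Hox genes in the embryo, were at 0 in all 14 libraries.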

How the data were processed

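RNA was sequenced from LSK and LK cells of Mx1Cre; Jak2 VF/+ chimaeras and from cultured MSC. The authors trimmed reads with fastp 0.20.0, aligned them with HISAT2 2.0.1 (genome build GRCm38) and counted pairs on Ensembl release 100 genes with featureCounts 2.0.2 in reverse-stranded mode, and the deposited values are these raw counts, without normalization. LSK, LK and MSC counts are in separate tables made with the same settings. Pairs on more than 1 gene or place were not counted, so shared exons lose reads. The methods also name Genomic Alignments.

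The quasi-likelihood test of edgeR 4.0.16 was run under R 4.3.3 (filterByExpr, TMM, robust glmQLFit, two-sided glmQLFTest, Benjamini-Hochberg over all genes tested). CPM and FPKM were computed with TMM-scaled library sizes and the file's gene lengths. An SE is the log2 fold change divided by the square root of F. Symbols matched 55227 of 55487 identifiers. Alternatives were DESeq2 1.42.0, limma-voom (limma 3.58.1), other scalings and filters, a joint fit, the replicate number as a block, and each library left out. The tests were checked on simulated counts. The members and lists were chosen with earlier results of these data known. Per-library values are given for Hox genes that averaged at least 1 CPM in a group or were called, and called genes of other lists are named, at most 4 for each.

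Deviations from the group means of LSK and LK libraries with the same number correlated at 0.103 to 0.372 with PBS (3 pairs). LSK library 2 with PBS correlated more with LK library 1 (0.142) than with its own number. With IL-1β the value was 0.126 for both pairs, which must be equal when a group holds 2 libraries. These correlations cannot show whether the numbers pair the 2 populations, and no label states it. The replicate block assumes such a pairing and was run as an alternative only. The header of the MSC table names 1 further library whose counts were not analysed here. A few genes of the lists are not reported here.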

Additional observations from a re-analysis of the deposited data

How the results depend on the processing

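The number of Hox genes called moved by over 1.5 times in these cases, and the cause was not tested except where fewer libraries or genes entered. In LSK cells the joint fit of 10 libraries called 1 in place of 0 with IL-1β. In LK cells 0 to 2 were called with a library left out, in place of 1. In MSC 0 were called with DESeq2, 0 with a filter of at least 10 counts in at least 2 libraries, and 0 to 5 with a library left out, in place of 1. Between LSK and LK cells with PBS, 3 to 7 were called with a library left out, in place of 5, and without LK PBS library 2 it was 3. Between LSK and LK cells with IL-1β, 2 were called with DESeq2, 2 with upper-quartile factors, 2 with no filter, 3 with the replicate block, and 0 to 6 with a library left out, in place of 0. For the difference between the LSK and LK responses it was 0 in all 18 alternatives. None of the single-gene fold changes recomputed under the alternatives changed sign. Where a group was left with 1 library, that library was assumed to vary like the others.

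No label ties a replicate number to an animal or a batch that PBS and IL-1β libraries share, so whether the numbers pair them is not known. With them as a replicate block, 0 Hox genes were called in LSK and 1 in LK cells, as without it, while calls over all genes went from 83 to 702 and from 1199 to 2331. The block changed no Hox call between LSK and LK cells with PBS (5 called) and none in the difference between responses (0 called, with 4 genes called in all without the block and 24 with it). No paired analysis was possible because the MSC groups share only the number 2.

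Calls over all genes ranged over the alternatives from 3 to 1228 in LSK (0 Hox genes of 83 calls in all, 891 with DESeq2 and 21 with limma-voom), from 66 to 2409 in LK, from 38 to 3819 in MSC, from 2145 to 4965 between populations with PBS, from 358 to 4170 with IL-1β, and from 0 to 398 for the difference between responses. TPM in place of FPKM changed the values and left the order of the 5 highest genes in each PBS group as it was. The shallow IL-1β libraries of LSK cells limit what can be seen for genes of few counts: 1 pair is 0.222 CPM in the shallowest.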

Other observations

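Of 43 noncoding genes that lie within the Hox clusters, few were read in LSK and LK cells. The most abundant was Hoxb3os, which is transcribed from the strand opposite to Hoxb3. It stood at 0.595, 2.33 and 2.11 CPM in LSK cells with PBS and at 9.85 and 6.65 CPM with IL-1β (log2 fold change 2.29, edgeR adjusted p = 0.156), and at 0, 0.803 and 0.276 CPM in LK cells with PBS and 2.68 and 1.64 CPM with IL-1β (log2 fold change 2.53, edgeR adjusted p = 0.148). In both populations the IL-1β libraries lay above all PBS libraries, without a call. The same held for 2404 of all 13132 genes tested in LSK and 2439 of all 12835 in LK cells. With IL-1β Hoxb3os was called higher in LSK than in LK cells (log2 fold change 1.94, edgeR adjusted p = 0.0486), a call lost in 3 of 13 alternatives. Hoxb5os stood at 0.0661, 0.354 and 0.566 CPM in LSK cells with PBS and at 1.64 and 3.99 CPM with IL-1β (log2 fold change 3.02, edgeR adjusted p = 0.219), and in LK cells it was at 0 in all PBS libraries and at 0.122 and 0.297 CPM with IL-1β. Counting used strand, so that these pairs were assigned apart from those of the coding genes opposite, Hoxb3 among them. Hoxa11os was read in MSC alone, at 1.97 and 0.913 CPM with PBS and 0.909 and 0.739 CPM with IL-1β, as was its coding partner Hoxa11.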
